A study of Homo sapiens with 18 samples.

Results

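TBX2, TBX3, TBX4 and TBX5 are T-box transcription factors of one subfamily. They bind DNA through a shared T-box domain. TBX2 and TBX3 are known mainly as transcriptional repressors that hold down cell cycle inhibitor genes and let cells escape senescence, whereas TBX4 and TBX5 are known mainly as activators, with roles in the budding of the lung and limbs and, for TBX5, in the heart. The data set the repressor pair against the activator pair in the human lung cancer line NCI-H1299. The comparison used 12 of 18 RNA-seq libraries, 3 from cells that received each TBX plasmid, and asked which genes differed between the pairs with both members of a pair on the same side. Genes were tested if 10 or more of the 18 libraries held over 5 counts, which left 15576, and 1833 of these met the rule.

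All cells were of the same line, and plasmids were introduced transiently with Lipofectamine. Cells of the TBX2 and TBX4 groups received human cDNAs with a Flag tag in pORF plasmids. The TBX3 group received human TBX3 and the TBX5 group mouse Tbx5, both with an HA tag in pCGN plasmids. Thus TBX2 against TBX4 and TBX3 against TBX5 were comparisons within a plasmid type, and these contrasts shared no library. The 6 control libraries were 3 with an empty vector (EV) and 3 labelled Ctl, a group whose treatment is not described. The title of TBX4 replicate c ends in TBX5, but its number is that of the TBX4 group, it held no fewer than 85197 TBX4 counts like the others of that group, and at most 1 TBX5 count, so it was used as TBX4. The labels do not say that replicates a, b and c came from separate cultures, so p-values measure the spread between these libraries, which may be technical.

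The transfected genes were the largest differences. Levels are in CPM, the count as a share of its library after TMM, a scaling under which most genes are taken to be equal between libraries. TBX2 stood at 4454 ± 367.3 CPM (SD, n = 3) with its plasmid, TBX3 at 21840 ± 3864 CPM and TBX4 at 7952 ± 481.5 CPM. Human TBX5 received 1161 to 1302 counts in the TBX5 libraries, which come from reads of the mouse cDNA that match the human gene, and TBX5 was below the filter and not tested. The plasmids were thus not expressed at one level, and a difference between TBXs cannot be told apart from a difference in their amount. TBX4 reads were also counted in the other TBX libraries (6 to 19 counts per library, at most 1 in a control), and whether these are reads from other libraries was not tested. TBX3 stood at 2.28 ± 0.68 CPM (SD, n = 6) in the controls, at 6.68 ± 0.142 CPM with TBX4 and at 10.2 ± 2.75 CPM with TBX5 (SD, n = 3). Against the controls these were log2 differences of 1.58 and 2.25, with adjusted p = 1.7e-06 and 5.9e-09 (edgeR quasi-likelihood test, Benjamini-Hochberg over all tested genes). TBX3 with TBX2 stood at 3.05 ± 0.869 CPM. Reads of the plasmid and of the cell's own gene were not told apart, and whether these TBX3 reads also come from other libraries was not tested.

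Totals ran from 7365221 to 10771902 counts in the TBX2 and TBX3 libraries and from 7387816 to 10276199 counts in the TBX4 and TBX5 libraries. A floor of 3 counts equalled 0.21 to 0.593 CPM in these 12 libraries, for counting error only. A gene without a symbol, ENSG00000266658, took 10.7% to 47.5% of the counts in the TBX2 and TBX3 libraries and 13.2% to 53.5% in those of TBX4 and TBX5, with 13.2% to 18.6% for TBX4 and 22.5% to 53.5% for TBX5. Scaled by library totals, which include this gene, 60 genes separated the pairs in place of 1833. With this gene left out of the totals, 1618 did. Of 4 keratins of epithelial cells, KRT7, KRT8 and KRT18 passed the filter and KRT19, at 0 to 2 counts, did not, and none of the markers of other cell types passed the filter.

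Between the pairs, 966 genes were higher with TBX2 and TBX3 (6.2% of all tested) and 867 were higher with TBX4 and TBX5 (5.57%), together 11.8%. A gene was taken as separating the pairs when the contrast of the pairs, with each TBX weighted equally in 1 edgeR fit, had an adjusted p below 0.1 and the differences of either TBX of one pair from either TBX of the other all had the same sign. Another 281 genes passed the contrast while at least 1 of the 4 differences had the other sign. Most differences were small. The median absolute log2 difference was 0.29 in the first set and 0.28 in the second, beside 0.12 over all tested genes, and 26 and 38 genes respectively differed by at least 1. ZNF644 lay just inside the threshold (log2 difference 0.13 ± 0.049 SE) and NUDT9 just outside it (0.39 ± 0.15 SE). In 423 genes (2.72% of all tested) all 6 libraries of one pair lay above all 6 of the other. In 157 genes (1.01%) each of the 4 cross-pair contrasts was called with the same sign, with 103 higher with TBX2 and TBX3 and 54 higher with TBX4 and TBX5.

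Within a plasmid type, 1911 genes (12.3%) differed between TBX2 and TBX4 and 1154 genes (7.41%) between TBX3 and TBX5. Both were called with the same sign in 271 genes, 154 higher and 117 lower with the repressor, which was 14.2% of the first list and 23.5% of the second. In 55 genes both were called with opposite signs. Of the genes called between TBX2 and TBX4, 62.9% had the same sign between TBX3 and TBX5, and 69.7% of those called between TBX3 and TBX5 had the same sign between TBX2 and TBX4, against 54.6% of all tested genes. Across all 15576 genes the differences had a Pearson's r of 0.11 and a Spearman's rho of 0.12, which describe genes within these libraries, and genes are not independent replicates. The differences themselves differed (TBX2 − TBX4 against TBX3 − TBX5) in 911 genes (5.85%), of which 136 were among the 1833.

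**Figure D1:**
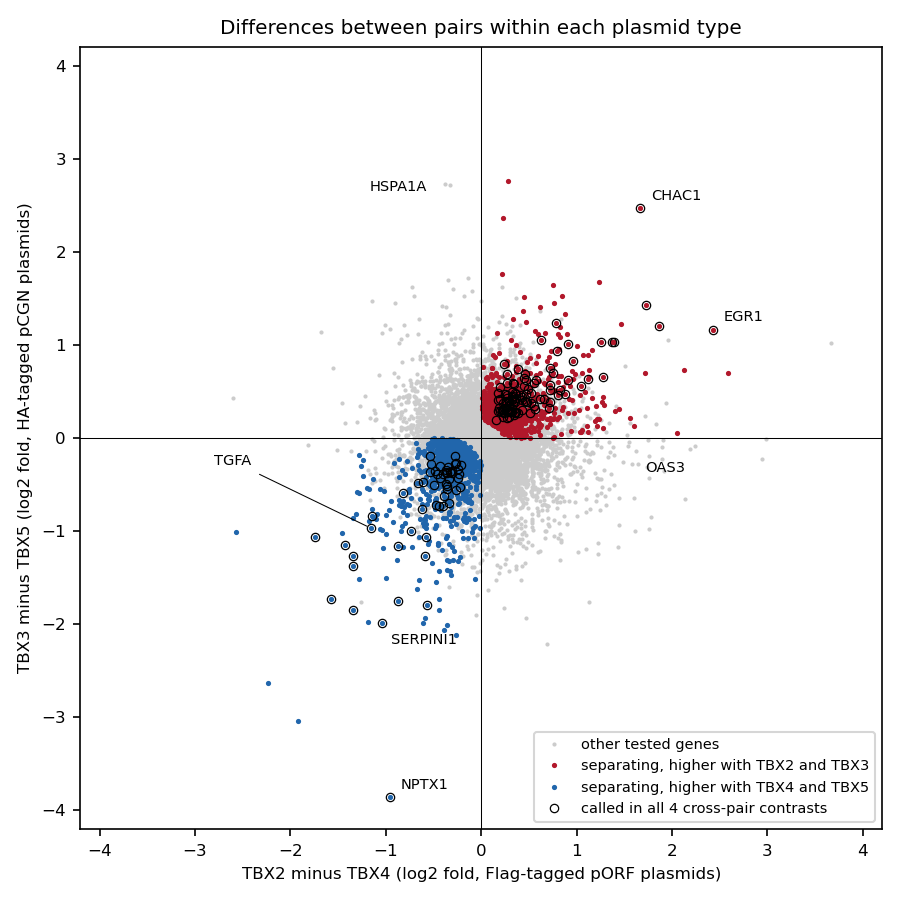
Log2 difference of TBX2 from TBX4 (x axis) against that of TBX3 from TBX5 (y axis), 1 point per tested gene other than the transfected ones. Red and blue points are genes that separate the pairs, higher with TBX2 and TBX3 or with TBX4 and TBX5, black rings mark the 157 called in all 4 cross-pair contrasts, and grey points are the rest, among them HSPA1A at the top and OAS3 at the right.

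The 6 control libraries placed the 2 sets differently. Over all 15576 tested genes, the controls lay nearer to TBX4 and TBX5 in 8952 and nearer to TBX2 and TBX3 in 6624. Of the 966 genes higher with TBX2 and TBX3, 724 had controls nearer to TBX4 and TBX5, and the median log2 difference from the controls was 0.25 with TBX2 and TBX3 and −0.04 with TBX4 and TBX5. Among them 679 passed the contrast of TBX2 and TBX3 with the controls (30.8% of all genes did) and 264 that of TBX4 and TBX5 (20.2%). The 867 genes higher with TBX4 and TBX5 were less one-sided. In 527 of them the controls lay nearer to TBX4 and TBX5 and in 340 nearer to TBX2 and TBX3, with medians of −0.21 and 0.10 from the controls, and 494 and 348 genes passed the contrasts. For the 54 called in all 4 contrasts, the controls were nearer to TBX4 and TBX5 in 26 and nearer to TBX2 and TBX3 in 28. Since each contrast with the controls shares its TBX libraries with the contrast of the pairs, these counts follow in part from how the genes were chosen. EV and Ctl differed in 29 genes (0.186%), of which 11 were among the 966 with EV higher.

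**Figure D2:**
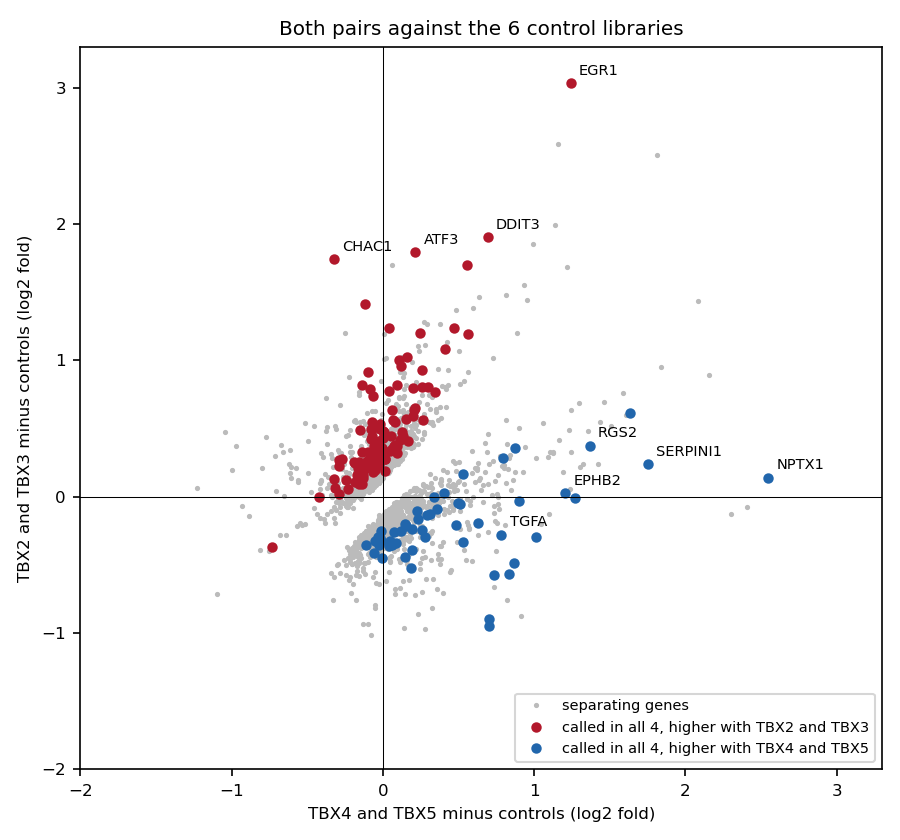
Log2 difference of TBX2 and TBX3 from the 6 control libraries (y axis) against that of TBX4 and TBX5 from them (x axis), 1 point per gene that separates the pairs, in grey, with the genes called in all 4 contrasts in red (103, higher with TBX2 and TBX3) or blue (54, higher with TBX4 and TBX5). CHAC1, ATF3 and EGR1 lie far along the TBX2 and TBX3 axis, and NPTX1, SERPINI1 and RGS2 far along the other.

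Of the 12 genes with the largest separation in favour of TBX2 and TBX3, 5 (CHAC1, DDIT4, DDIT3, TRIB3 and SESN2) were on a list for the integrated stress response, the programme by which amino acid shortage, misfolded protein or foreign RNA slows translation and switches on ATF4. ATF4 and its partners then raise genes for amino acid uptake, glutathione turnover and, if stress lasts, cell death. Of 25 tested genes of this list, 13 were higher with TBX2 and TBX3 and 0 lower, or 52% separating beside 11.8% of all tested genes, with a median log2 difference of 0.39, against a median of −0.003 over all tested genes. Within plasmid types, 20 were called higher with TBX2 than TBX4 (12.3% of all genes were called in either direction) and 8 higher with TBX3 than TBX5 (7.41%), with 0 lower in either. The difference of these differences was called in 6 of the 25 (5.85% of all genes), all larger between TBX2 and TBX4. EV minus Ctl had a median of 0.18 over the list. From the controls the list's median was 0.57 with TBX2 and TBX3 and 0.04 with TBX4 and TBX5. For each TBX alone, TBX2 had a median of 0.81, TBX3 of 0.27, TBX4 of 0.14 and TBX5 of −0.02.

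CHAC1, which breaks down glutathione, separated most by the rule used to pick examples, the smallest of the 4 cross-pair differences. It stood at 5.95, 6.82 and 4.86 CPM with TBX2, at 6.92, 10.5 and 9.04 CPM with TBX3, at 1.76, 1.71 and 2.21 CPM with TBX4 and at 2.1, 0.989 and 1.3 CPM with TBX5. No library of one pair overlapped the other, and the controls (1.48 to 3 CPM) lay with TBX4 and TBX5. The log2 difference was 2.07 ± 0.17 SE (edgeR adjusted p = 8.7e-10). ATF3, a stress-induced repressor on the list of immediate-early genes, ranged from 9.54 to 14.7 CPM (median 12.3) with TBX2 and TBX3 and from 3.34 to 4.95 CPM (median 3.98) with TBX4 and TBX5. Its log2 difference was 1.58 ± 0.11 SE (adjusted p = 7.7e-11), 1.73 between TBX2 and TBX4 and 1.43 between TBX3 and TBX5. DDIT3, which encodes the death-promoting factor CHOP, ranged from 24 to 45 CPM (median 33.3) against 12.1 to 16 CPM (median 14.7), a difference of 1.21 ± 0.085 SE. EV was also above Ctl for DDIT3, by 0.96, and for TRIB3, by 0.71.

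TRIB3, a pseudokinase that restrains AKT and ATF4, was higher by 1.20 ± 0.079 SE. SESN2, a sestrin that curbs mTOR signalling on amino acid shortage, was higher by 1.14 ± 0.088 SE, with 20.8 to 31.6 CPM against 11.2 to 12.6 CPM. DDIT4, another inhibitor of mTOR, was higher by 1.53 ± 0.25 SE. SLC7A11, the cystine transporter, was higher by 0.96 ± 0.074 SE, but more so between TBX2 and TBX4 (1.27) than between TBX3 and TBX5 (0.65), and the difference of these differences passed the test (adjusted p = 0.02). Outside the list, PPP1R15A, the phosphatase subunit that ends the response, was higher by 0.84 ± 0.13 SE, and HERPUD1, which serves the removal of misfolded protein from the endoplasmic reticulum, by 0.73 ± 0.08 SE. The other members of the list that were higher were CEBPB (0.80), CEBPG (0.45), CARS1 (0.44), STC2 (0.39), VEGFA (0.37), SLC7A5 (0.25) and ATF4 itself (0.24 ± 0.072 SE). All 12 genes of largest separation on this side passed the contrast of TBX2 and TBX3 with the controls (30.8% of all genes did). Of the 12, 4 also passed that of TBX4 and TBX5, higher (20.2% of all genes passed in either direction). The 12 were chosen from these same TBX libraries, so such counts follow in part from the choice. The remaining members of these 12 were EGR1, described below, DNAJB2, a co-chaperone (0.96 ± 0.1 SE), ZFAND2A, a zinc finger protein induced by arsenite (1.01 ± 0.1 SE), and ZNF442, a KRAB zinc finger gene (0.77 ± 0.11 SE). Among cytoplasmic tRNA synthetases, a list drawn up after the values were seen, AARS1 (0.51), CARS1, GARS1 (0.43), MARS1 (0.27) and TARS1 (0.23) were higher and QARS1 (−0.18) and RARS1 (−0.15) lower, of 20 tested. The separating share of this list was 35%, beside 11.8% of all tested genes.

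**Figure D3:**
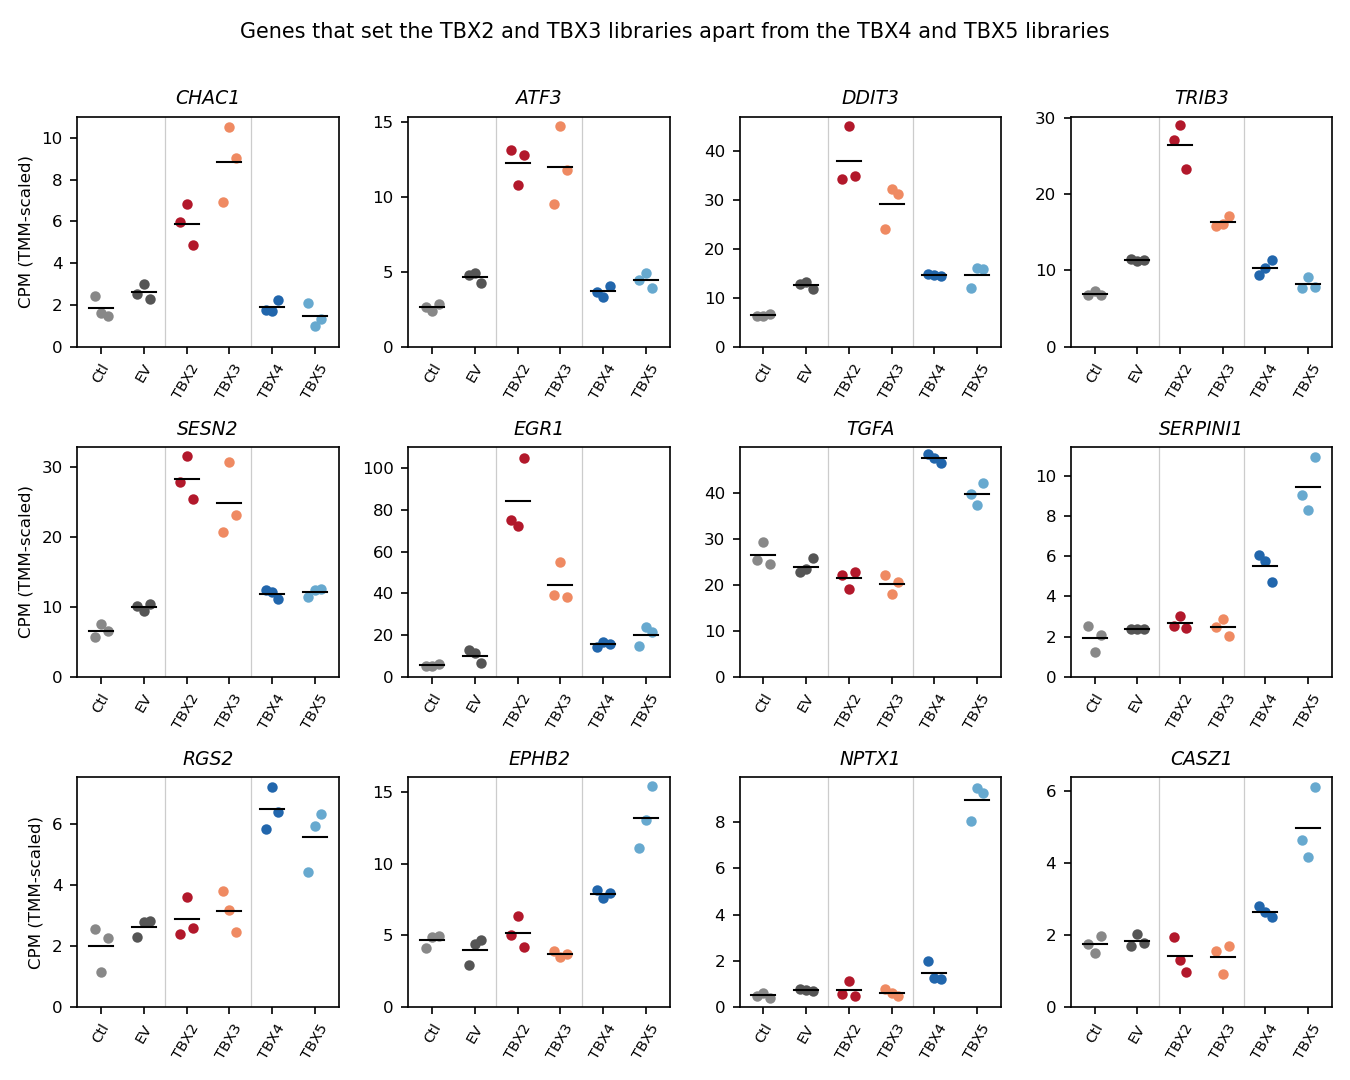
TMM-scaled CPM of 12 genes in each of the 18 libraries (points), by group, with the mean of each group as a bar. CHAC1, ATF3, DDIT3 and the others of this side lie higher in all 6 TBX2 and TBX3 libraries, and TGFA, SERPINI1 and the others of that side in all 6 TBX4 and TBX5 libraries.

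The bases upstream of 3 of these genes are shown since they hold sequences known from the response: the CARE, the composite site of CEBP and ATF factors to which ATF4 binds (searched as TGATGNAA), or the cyclic AMP response element CRE (TGACGTCA). The 250 bases before the start of each RefSeq transcript were read from GRCh38.p14 with RefSeq annotation, whereas the counts use GRCh37. Capitals mark the match, which in CHAC1 and HERPUD1 is on the minus strand and is thus read here as its reverse complement.
CHAC1, chr15:40953221-40953470, + strand: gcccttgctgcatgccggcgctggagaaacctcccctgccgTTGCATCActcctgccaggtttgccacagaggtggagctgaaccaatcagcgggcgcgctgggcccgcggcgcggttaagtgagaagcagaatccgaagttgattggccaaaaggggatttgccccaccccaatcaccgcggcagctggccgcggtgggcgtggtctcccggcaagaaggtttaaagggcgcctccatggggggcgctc
HERPUD1, chr16:56931892-56932141, + strand: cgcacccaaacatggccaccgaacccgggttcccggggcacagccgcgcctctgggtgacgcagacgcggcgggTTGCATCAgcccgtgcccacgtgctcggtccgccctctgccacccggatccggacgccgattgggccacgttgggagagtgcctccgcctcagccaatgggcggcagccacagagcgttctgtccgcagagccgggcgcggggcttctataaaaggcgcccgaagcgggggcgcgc
PPP1R15A, chr19:48872171-48872420, + strand: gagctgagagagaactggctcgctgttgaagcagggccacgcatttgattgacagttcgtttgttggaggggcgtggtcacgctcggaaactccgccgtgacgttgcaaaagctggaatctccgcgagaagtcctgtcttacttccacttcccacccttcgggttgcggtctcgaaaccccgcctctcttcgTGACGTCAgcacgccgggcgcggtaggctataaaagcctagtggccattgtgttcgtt
The CARE began 209 bases before the start in CHAC1 and 176 in HERPUD1, and the CRE 58 bases before it in PPP1R15A. These 3 were chosen because they held a match. Of the other genes of largest separation on this side, ATF3 had a CARE in 1 window but not in another. DDIT3, DDIT4, TRIB3, SESN2, EGR1, DNAJB2, ZFAND2A and ZNF442 held neither sequence in any window. Windows of the 250 bases before each start were matched for 10735 genes, 1407 of them separating. On either strand, TGATGNAA was in 1.72% of all 15625 windows, in 2.24% of those of the genes higher with TBX2 and TBX3 and in 1.71% of those higher with TBX4 and TBX5. In the genes called higher in all 4 contrasts it was in 7 of 119 windows (5.88%), where 1 gene can have several windows. TGACGTCA was in 2.48%, 3.32% and 1.91% of the windows of all genes and of the sets higher with TBX2 and TBX3 and with TBX4 and TBX5, and in 2.52% of those of the genes called higher in all 4 contrasts. A match describes letters and was not tested as a binding site.

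Immediate-early genes, which growth factors and stress switch on without new protein synthesis, also lay on the side of TBX2 and TBX3. Of 34 tested, 17 were higher and 2 lower (55.9% separating, beside 11.8% of all tested), with a median of 0.26. Between the control groups, EV minus Ctl, the same list had a median as large, 0.26, with 0 genes called. Called differences numbered 10 higher and 1 lower between TBX2 and TBX4, and 14 higher and 2 lower between TBX3 and TBX5. Over all genes, 12.3% and 7.41% were called in either direction. EGR1, a zinc finger factor of the growth response, stood at 75.4, 72.1 and 105 CPM with TBX2, at 39.3, 55 and 38.4 CPM with TBX3, at 14.3, 16.4 and 15.8 CPM with TBX4 and at 14.8, 23.9 and 21.7 CPM with TBX5. The pairs did not overlap, and the controls ranged from 5.13 to 12.6 CPM, below every TBX library. The difference was 1.79 ± 0.12 SE (adjusted p = 1.2e-11), larger between TBX2 and TBX4 (2.43) than between TBX3 and TBX5 (1.16, adjusted p = 0.0037 for the difference). JUN, an AP-1 subunit, ranged from 26.1 to 45.6 CPM (median 33.2) against 15.7 to 21.5 CPM (median 17.7), a difference of 0.86 ± 0.08 SE. GADD45A (0.88), MAFF (0.79), CSRNP1 (0.56), GADD45B (0.50), HBEGF (0.50), JUNB (0.42) and JUND (0.39) were also higher. FOS, the partner of JUN, was higher by 0.47 ± 0.15 SE, but its libraries overlapped (6.47 to 11.6 against 4.97 to 9.89 CPM) and neither within-plasmid contrast was called. KLF2 (−0.84 ± 0.16 SE) and PLAUR (−0.22) were lower. DUSP1, the phosphatase that turns off MAP kinases, was the member of a 17-gene ERK feedback list that separated (0.68 ± 0.1 SE). The share of that list was 5.88%, beside 11.8% of all tested genes. The 6 members of the early list that were called in all 4 contrasts were ATF3, EGR1, GADD45A, JUN, PPP1R15A and RHOB (0.37).

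NF-kappaB targets followed with smaller values. Of 17 tested, 6 were higher and 1 lower, or 41.2% separating beside 11.8% of all tested genes. The higher ones included TNFAIP3, a feedback inhibitor of NF-kappaB (0.49 ± 0.072 SE), and the subunits RELB (0.40 ± 0.062 SE) and NFKB2 (0.35 ± 0.052 SE). ICAM1, an adhesion receptor, was lower (−0.25 ± 0.086 SE). Within plasmid types, 6 were called higher between TBX2 and TBX4 (12.3% of all genes in either direction). Between TBX3 and TBX5, 3 were called higher and 1 lower (7.41%). Genes of the circadian clock, a list also drawn up after the values were seen, had a median of 0.31. Of 22 tested, 11 were higher and 0 lower, or 50% separating beside 11.8% of all tested genes. They included the repressors NR1D1 (0.89 ± 0.14 SE), NR1D2 (0.62 ± 0.059 SE), BHLHE41 (0.74 ± 0.13 SE) and PER2 (0.67 ± 0.11 SE), and NOCT, a phosphatase of rhythmic expression (0.58 ± 0.076 SE). Of these 22 genes, 10 were called higher between TBX2 and TBX4 and 5 between TBX3 and TBX5. Of all genes, 12.3% and 7.41% were called in either direction. Of 20 tested histone lysine demethylases, KDM7A (0.83 ± 0.11 SE), KDM6A (0.32 ± 0.064 SE) and JMJD1C (0.23 ± 0.051 SE) were higher and the others did not separate, a share of 15% beside 11.8% of all tested genes, and the list's median was 0.03.

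**Figure D4:**
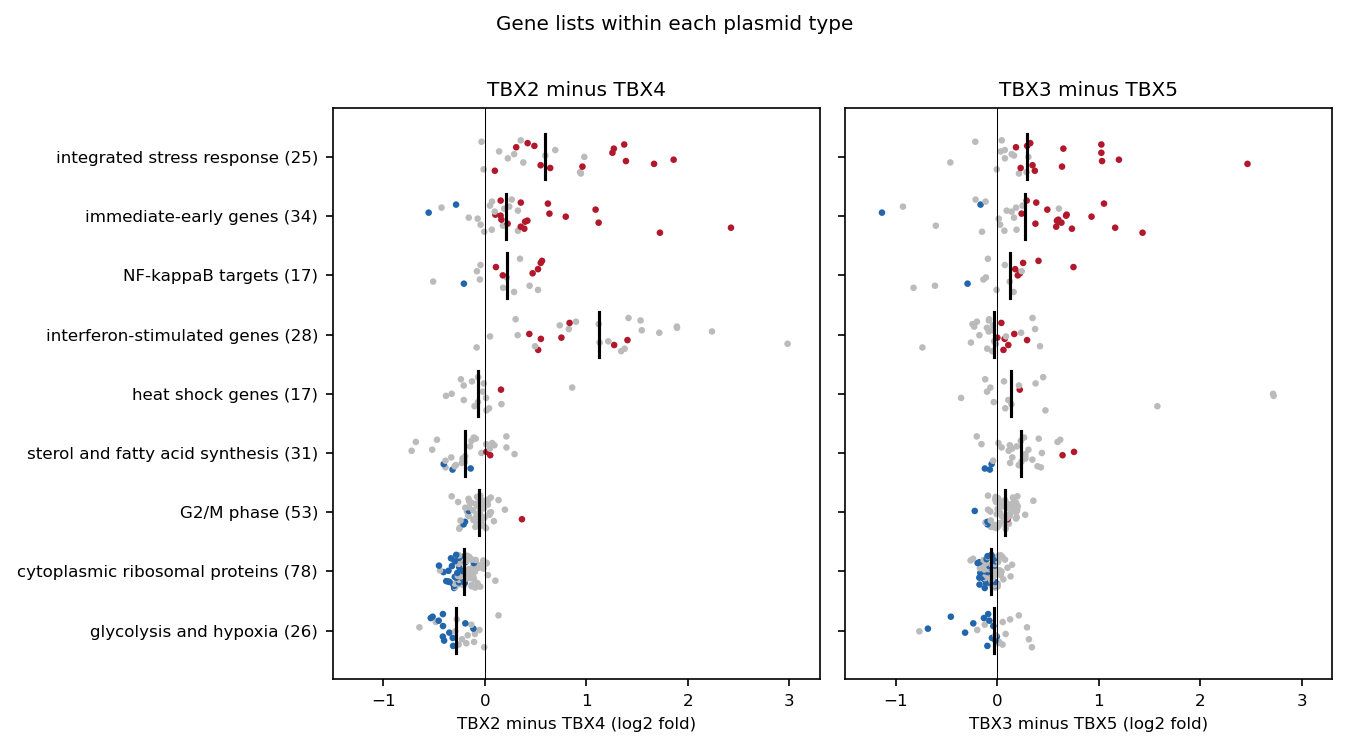
Log2 difference of TBX2 from TBX4 (left panel) and of TBX3 from TBX5 (right panel) for each tested gene of 9 lists, with the number tested beside the name. Red points are genes that separate the pairs and are higher with TBX2 and TBX3, blue points those higher with TBX4 and TBX5, grey points the rest, and a black bar marks the list's median, which for the stress response and immediate-early lists lies to the right of 0 in both panels and for the interferon list only in the left one.

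On the side of TBX4 and TBX5, the 12 genes with the largest separation were TGFA, SERPINI1, EPHB2, NPTX1, RGS2, ACVR1C, CASZ1, ABCD2, SLC15A2 and the chromosome 18 pseudogenes ANKRD20A5P, CYP4F35P and FRG2LP. TGFA, a ligand of the EGF receptor, stood at 22.2, 19.2 and 22.8 CPM with TBX2, at 22.1, 18 and 20.6 CPM with TBX3, at 48.4, 47.5 and 46.5 CPM with TBX4 and at 39.7, 37.4 and 42.1 CPM with TBX5. The controls (22.7 to 29.3 CPM) lay near TBX2 and TBX3. The log2 difference was −1.06 ± 0.064 SE (edgeR adjusted p = 1.7e-12), −1.16 between TBX2 and TBX4 and −0.97 between TBX3 and TBX5. SERPINI1, the serine protease inhibitor neuroserpin, ranged from 2.03 to 3.01 CPM with TBX2 and TBX3, from 4.71 to 6.07 CPM with TBX4 and from 8.31 to 10.9 CPM with TBX5, a difference between the pairs of −1.51 ± 0.14 SE. EPHB2, an ephrin receptor, ranged from 3.46 to 6.32 CPM against 7.61 to 15.4 CPM (−1.18 ± 0.12 SE), and its difference was larger between TBX3 and TBX5 (−1.79) than between TBX2 and TBX4 (−0.57, adjusted p = 0.0042 for the difference). NPTX1, a neuronal pentraxin of synapses, stood at 1.2 to 2 CPM with TBX4 and 8.08 to 9.5 CPM with TBX5, and at 0.486 to 1.1 CPM with TBX2 and TBX3. Its difference was −2.41 ± 0.22 SE, also larger between TBX3 and TBX5 (−3.86 against −0.96, adjusted p = 0.0011).

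RGS2, which shuts off G protein signalling, ranged from 2.4 to 3.79 CPM against 4.43 to 7.22 CPM, a difference of −0.99 ± 0.16 SE. It was −1.14 between TBX2 and TBX4 and −0.84 between TBX3 and TBX5, both called. ACVR1C, the activin receptor ALK7, differed by −0.93 ± 0.15 SE, CASZ1, a zinc finger factor of heart and vessel development, by −1.31 ± 0.18 SE, the peroxisomal transporter ABCD2 by −0.86 ± 0.11 SE, and the peptide transporter SLC15A2 by −1.29 ± 0.22 SE. Several of these are low, and the SLC15A2 libraries of TBX2 and TBX3 held 0.324 to 1.2 CPM against a floor of up to 0.486 CPM. All 12 genes of largest separation on this side passed the contrast of TBX4 and TBX5 with the controls, higher (20.2% of all genes passed in either direction). Of the 12, 5 passed that of TBX2 and TBX3, lower (30.8% in either direction). Both counts follow in part from the choice of these genes, which used the same TBX libraries. Between these 12 and the 12 of the other side, the difference of the within-plasmid differences was called in 3 and 1 genes, beside 5.85% of all genes.

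The upstream bases of SERPINI1 and RGS2 are shown as examples of this side that hold T-box sequences, the consensus AGGTGTGA or its core GGTGTG. Among the genes of largest separation that had a window, the core was also found for EPHB2 on this side and for DNAJB2, ZFAND2A and TRIB3 on the other, and the consensus for SERPINI1 alone. The bases were read in the same way as those above, and capitals mark the consensus in SERPINI1 and the core on the minus strand in RGS2.
SERPINI1, chr3:167735471-167735720, + strand: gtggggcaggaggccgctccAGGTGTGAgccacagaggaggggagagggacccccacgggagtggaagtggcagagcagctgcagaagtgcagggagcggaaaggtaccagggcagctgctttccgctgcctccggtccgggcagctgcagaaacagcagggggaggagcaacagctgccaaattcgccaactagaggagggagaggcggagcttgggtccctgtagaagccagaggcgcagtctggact
RGS2, chr1:192808789-192809038, + strand: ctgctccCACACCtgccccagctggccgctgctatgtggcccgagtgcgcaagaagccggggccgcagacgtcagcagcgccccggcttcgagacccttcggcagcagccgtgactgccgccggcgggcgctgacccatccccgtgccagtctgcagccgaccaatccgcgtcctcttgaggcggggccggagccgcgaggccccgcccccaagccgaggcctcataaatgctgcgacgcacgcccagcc
These began 230 and 243 bases before the start. AGGTGTGA, on either strand, was in 0.621% of all windows, 0.628% of those of the genes higher with TBX2 and TBX3 and 1.1% of those higher with TBX4 and TBX5, which were 7 of 1115 and 11 of 996 windows. The core, which every consensus match contains, was in 13.2%, 12.5% and 13.9%. Of the 24 genes of largest separation 19 had a window.

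Genes of 1 stretch of chromosome 18 recurred on the side of TBX4 and TBX5. Between 14057456 and 14338833 (GRCh37), 11 genes were tested and 10 were lower with TBX2 and TBX3, with log2 differences of −0.71 to −1.79. Of all tested genes, 5.57% separated in this direction. The 6 called in all 4 contrasts, of 54 such genes in the genome, were ZNF519 (−0.71 ± 0.06 SE) and the pseudogenes FRG2LP, ENSG00000267324, ANKRD20A5P (−1.31 ± 0.057 SE, adjusted p = 6e-16), RHOT1P1 and CYP4F35P. ANKRD20A5P ranged from 23.6 to 37.4 CPM with TBX2 and TBX3 and from 63.2 to 94.8 CPM with TBX4 and TBX5, with the controls at 43.3 to 49.6 CPM between them. The remaining gene, ENSG00000267756, differed by −0.33 ± 0.21 SE. Pseudogenes share reads with their copies, exons of ANKRD20A5P overlap other genes over 68.5% of their length, and whether these are separate transcripts was not tested, so the 10 are not independent. On chromosome 19, between 11877815 and 12476719 (GRCh37), 20 genes of a zinc finger cluster were tested. ZNF441 (0.54), ZNF844 (0.63), ZNF442 (0.77), ZNF433 (0.35) and ZNF44 (0.41) were higher with TBX2 and TBX3, and ZNF439 (−0.54) was lower. The shares over all tested genes were 6.2% higher and 5.57% lower. Both stretches were noticed after the values were seen.

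Glycolysis and hypoxia genes were lower with TBX2 and TBX3 by small amounts. Of 26 tested, 12 were lower and 0 higher, or 46.2% separating beside 11.8% of all tested genes, with a median of −0.19. The glucose transporter SLC2A1 (−0.49 ± 0.066 SE), the regulator PFKFB3 (−0.40 ± 0.074 SE), lactate dehydrogenase LDHA (−0.33 ± 0.055 SE) and the lactate exporter SLC16A3 (−0.33 ± 0.071 SE) had the largest differences. LDHA ranged from 214 to 259 CPM with TBX2 and TBX3 and from 287 to 355 CPM with TBX4 and TBX5, without overlap. The list's differences lay mainly between TBX2 and TBX4, with 14 called (12.3% of all genes were) against 4 between TBX3 and TBX5 (7.41%), and 6 members, among them ENO1, GPI, PGK1 and PFKFB3, differed between the plasmid types in this difference (test of the difference itself). Cytoplasmic ribosomal protein genes had the same direction. Of 78 tested, 28 were lower and 0 higher, or 35.9% separating beside 11.8% of all tested genes, with a median of −0.13. Within plasmid types, 34 were called lower between TBX2 and TBX4 but 1 between TBX3 and TBX5. The count of 28 rested on single libraries, with 12 left without TBX4 replicate a, 14 without TBX2 replicate a or c, 15 without TBX3 replicate b, 17 without TBX5 replicate c, but 32 without TBX3 replicate c and 42 without TBX2 replicate b. These genes have many pseudogenes, among which reads can be split. None of 15 mitochondrial genes separated.

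Actin cytoskeleton genes, a list drawn up after the values were seen, had 11 of 35 members lower and 1 higher, TPM1 (0.17 ± 0.051 SE). The separating share was 34.3%, beside 11.8% of all tested genes. The actin bundling protein FSCN1 (−0.57 ± 0.054 SE), the galectin LGALS1 (−0.40 ± 0.059 SE), beta actin ACTB (−0.37 ± 0.054 SE), the myosin heavy chain MYH10 (−0.27 ± 0.048 SE) and the ARP2/3 subunit ARPC1A (−0.24 ± 0.043 SE) were lower in all 4 contrasts. Among the keratins of simple epithelia, KRT8 (−0.64 ± 0.072 SE) and KRT18 (−0.37 ± 0.062 SE) were lower. KRT18 ranged from 43 to 53.7 CPM against 54.4 to 72.7 CPM, with the controls at 61 to 75.5 CPM. KRT7 was higher (1.05 ± 0.33 SE), with TBX2 at 1.78 to 2.81 CPM and every other TBX library under 1 CPM.

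Genes of epithelial to mesenchymal transition and adhesion split evenly, with 5 higher and 5 lower of 30. The separating share was 33.3%, beside 11.8% of all tested genes. ZEB2 (0.37 ± 0.068 SE) was higher and the integrin ITGA6 (−0.42 ± 0.043 SE) lower in all 4 contrasts, while VIM (−0.16) and FN1 (−0.20) were lower and ZEB1 (0.22), THBS1 (0.36) and COL12A1 (0.48) higher. In TGF-beta and BMP signalling, the BMP antagonist NOG (−2.48 ± 0.34 SE), the TGF-beta binding proteins LTBP1 (−0.72 ± 0.12 SE) and LTBP2 (−0.27 ± 0.06 SE), the ligand BMP6 (−0.43 ± 0.095 SE) and the matrix protein TGFBI (−0.29 ± 0.06 SE) were higher with TBX4 and TBX5. SKIL, an inhibitor of SMADs (0.43 ± 0.058 SE), and ID3 (0.27 ± 0.08 SE) were higher with TBX2 and TBX3. Together 7 of 19 tested separated, or 36.8% beside 11.8% of all tested genes. NOG was low, at 0 to 0.752 CPM with TBX2 and TBX3 and 0.923 to 7.72 CPM with TBX4 and TBX5. In the WNT pathway, the receptor FZD7 (−0.31), the inhibitors SFRP1 (−0.40) and DKK3 (−0.29) and the ligand WNT5B (−0.27) were lower, and the ligand WNT2B (0.38 ± 0.14 SE) and the inhibitor DKK1 (0.35) higher, 6 of 19 or 31.6% beside 11.8% of all tested genes. These calls were not stable. They fell to 1 with the DESeq2 Wald test, to 2 without TBX2 replicate b, and to 3 without TBX3 replicate b or c, TBX4 replicate a or b, or TBX5 replicate b. The Seurat lists of S phase (2 higher and 4 lower of 42) and of the G2/M phase (1 higher and 3 lower of 53) had separating shares of 14.3% and 7.55%, beside 11.8% of all tested.

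Among genes described as direct targets, 1 of 5 tested for TBX2 and TBX3 and 1 of 4 for TBX4 and TBX5 separated the pairs, beside 11.8% of all tested genes. Of the former, CDKN1A, the cell cycle inhibitor p21 that both are known to repress, was lower with them, at 14.5 to 20.1 CPM against 18.2 to 31.1 CPM (−0.36 ± 0.088 SE, adjusted p = 0.008). The difference was called between TBX3 and TBX5 (−0.61 ± 0.13 SE) and not between TBX2 and TBX4 (−0.11 ± 0.12 SE). The controls had a mean of 14.9 CPM, with Ctl at 12.1 ± 0.88 CPM and EV at 17.6 ± 0.72 CPM (SD, n = 3). TBX2 stood at 19.6 ± 0.48 CPM and TBX3 at 17.2 ± 2.4 CPM. Both were above the pooled control mean, but TBX3 lay near EV. CDKN2A (0.04 ± 0.083 SE), CDKN1B (0.15 ± 0.08 SE) and NDRG1 (−0.53 ± 0.33 SE) did not pass. Of the targets of TBX4 and TBX5, WNT2B was the one that separated, and it was lower with TBX4 and TBX5. This call was not stable. It was lost with the DESeq2 Wald test, at an adjusted p below 0.05 and with no filter beyond 1 count. It was also lost without TBX2 replicate a or b, TBX3 replicate a, TBX4 replicate a or b, or TBX5 replicate b or c. ID2 had a lower pair contrast (−0.47 ± 0.12 SE, adjusted p = 0.013), but TBX3 did not lie below TBX4. Among 9 tested T-box genes, none but the transfected ones separated the pairs.

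Interferon-stimulated genes, heat shock genes and those of sterol synthesis differed between the within-plasmid contrasts. Interferon-stimulated genes had a median of 0.53 between the pairs, but 26 of 28 were called higher between TBX2 and TBX4 and 0 between TBX3 and TBX5. The difference of these differences passed in 21, and 7 of the 28 were called higher in EV than in Ctl. In the same order, 12.3%, 7.41%, 5.85% and 0.186% of all tested genes were called, in either direction. OAS3, a sensor of double-stranded RNA, stood at 103, 100.2 and 104 CPM with TBX2 and at 23.3 to 29.1 CPM in the other 9 TBX libraries. IFI6, an interferon-induced mitochondrial protein, stood at 38.2 to 43.6 CPM with TBX2 and 2.77 to 5.63 CPM in the others. The 7 members that separated (25%, beside 11.8% of all tested) were IFIT2 (0.85), IFI44 (0.69), RIGI (0.44), IFIT5 (0.38), IFIT3 (0.31), IRF1 (0.30) and HERC5 (0.29), and 0 were called in all 4 contrasts. In antigen presentation by MHC class I, 1 of 15 genes separated, ERAP2 (0.46 ± 0.13 SE), or 6.67% beside 11.8% of all tested genes. Of the 15, 9 were called higher between TBX2 and TBX4 (12.3% of all genes in either direction) and 1 lower between TBX3 and TBX5 (7.41%).

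The heat shock genes that stood apart did so with TBX3. HSPA1A, an inducible chaperone, stood at 135, 204 and 177 CPM with TBX3 and at 19.7 to 29.7 CPM with the other TBXs. Its TBX2 libraries (19.7 to 26.3 CPM) lay below those of TBX4 (27.9 to 29.7 CPM). DNAJB1, its co-chaperone, ranged from 173 to 223 CPM with TBX3 and from 57.6 to 68.8 CPM with the others. HSPA1A and HSPA1B are near-identical copies, and their counts are uncertain. Of 17 heat shock genes, HSPA4L alone separated (0.19 ± 0.052 SE), or 5.88% beside 11.8% of all tested genes. Of the 17, 1 was called higher and 3 lower between TBX2 and TBX4 (12.3% of all genes in either direction). Between TBX3 and TBX5, 8 were called higher and 1 lower (7.41%). Sterol and fatty acid synthesis genes went opposite ways by plasmid type. Of 31 tested, 10 were called lower and 0 higher between TBX2 and TBX4 (12.3% of all genes in either direction). Between TBX3 and TBX5, 11 were called higher and 0 lower (7.41%). Of the 31, 2 separated the pairs as higher and 3 as lower with TBX2 and TBX3, or 16.1% beside 11.8% of all tested genes. HMGCS1, an early enzyme of cholesterol synthesis, stood at 53.9 to 57.8 CPM with TBX3 and at 30.7 to 39.5 CPM with the others, and its control mean was 51.6 CPM. It counts among the separating genes (0.35 ± 0.063 SE), as does INSIG1, which restrains this pathway (0.39 ± 0.067 SE). EBP, ACAT2 and ACLY separated in the other direction. DHRS2, a short-chain dehydrogenase, ranged from 35.3 to 45.5 CPM with TBX2, 4.36 to 6.27 CPM with TBX3, 12.6 to 13.5 CPM with TBX4 and 8.19 to 13.4 CPM with TBX5, so that TBX2 and TBX3 lay on opposite sides of the other pair. Of 28 replication-dependent histone genes, 18 were called lower between TBX2 and TBX4 (12.3% of all genes in either direction). Between TBX3 and TBX5, 1 was called higher (7.41%), and 3 separated the pairs (10.7%, beside 11.8%).

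**Figure D5:**
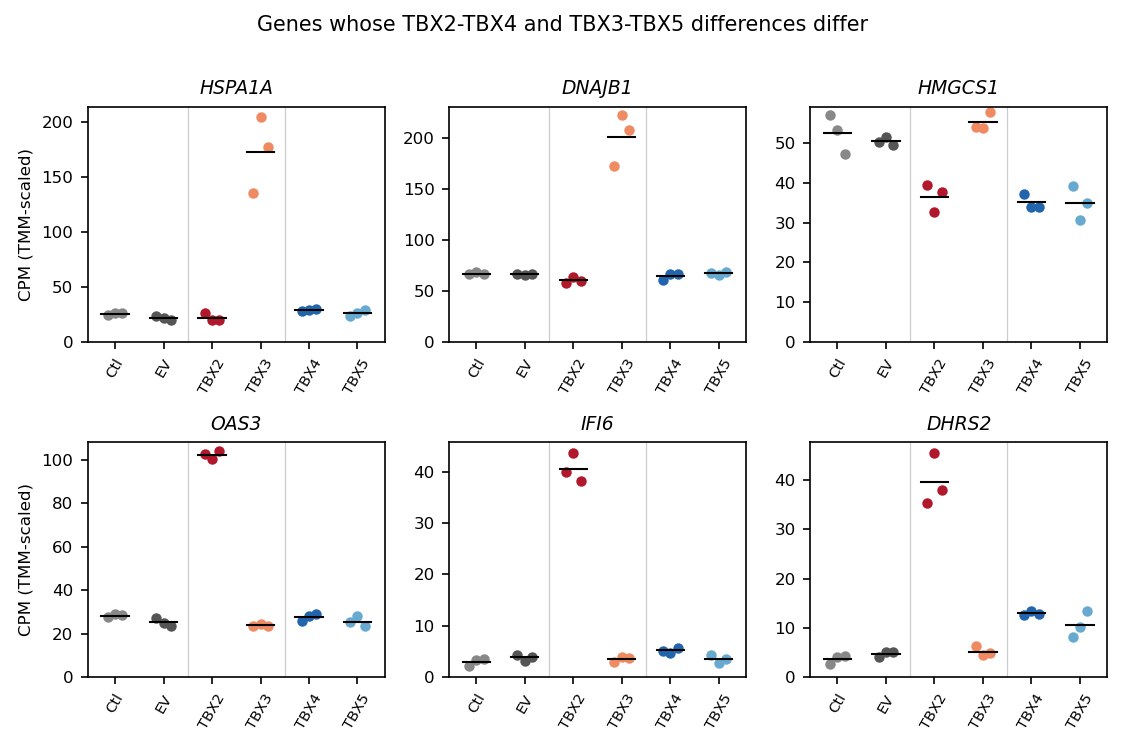
TMM-scaled CPM of HSPA1A, DNAJB1, HMGCS1, OAS3, IFI6 and DHRS2 in each of the 18 libraries (points) by group, with group means as bars. The heat shock genes and HMGCS1 differ between the TBXs through the 3 TBX3 libraries, and OAS3 and IFI6 through the 3 TBX2 libraries, while DHRS2 is highest with TBX2 and lowest with TBX3.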

How the data were processed

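RNA-seq measured 18 libraries of NCI-H1299 cells, 3 each for TBX2, TBX3, TBX4, TBX5, EV and Ctl. Paired-end reads were converted with bcl2fastq 1.8.4 and aligned to GRCh37 with STAR 2.3.0 by the authors, who used featureCounts with default settings per Ensembl gene and deposited the raw counts without a filter. All columns of the table were used. Default counting does not use strand, so reads of overlapping antisense genes cannot be told apart.

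Genes over 5 counts in 10 or more libraries were tested with edgeR 4.0.16 (R 4.3.3), by TMM scaling and the quasi-likelihood test in 1 fit of all 18 libraries, at an adjusted p (Benjamini-Hochberg) of 0.1. The standard error is the absolute log2 difference over the square root of F. Members and lists were chosen with earlier results of these data known, and the lists of clock, tRNA synthetase and actin genes after the values here were seen. The genes named are the transfected ones, list members that separate (all tested T-box and target genes), the 12 in each direction with the largest gap among those called in all 4 contrasts, not overlapping and at 1 CPM or more in the higher pair, and the 3 in each direction with the smallest p for a difference between plasmid types. Genes of the regions on chromosomes 18 and 19, the threshold genes, and the clock, tRNA synthetase and actin genes lie outside this rule and were chosen after their values were seen. Some genes are not reported here. The phase lists came from Seurat 5.3.0. Alternatives were DESeq2 1.42.0, other scalings, filters and thresholds, the replicate letter as a block, GC correction, the share of ENSG00000266658 as a covariate, the 12 TBX libraries alone and leaving out each library. The procedure was tested on simulated data. Promoters are from RefSeq (GRCh38.p14).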

Additional observations from a re-analysis of the deposited data

Results flagged for a closer look

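The log2 difference of TBX2 from TBX4 minus that of TBX3 from TBX5 passed the edgeR test (adjusted p below 0.1) in 35 named genes, of which 28 separate the pairs and 7 do not. A positive value means that TBX2 minus TBX4 exceeds TBX3 minus TBX5. The plasmid type and the TBXs in it cannot be told apart in these values.

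The transfected genes had the largest, with 10.25 for TBX2, −12.12 for TBX3 and −10.81 for TBX4. Heat shock genes were negative, with −3.11 for HSPA1A, −3.05 for HSPA1B (near-identical copies) and −1.68 for DNAJB1, and so were the sterol genes HMGCS1 (−0.59) and INSIG1 (−0.74). Interferon-stimulated genes were positive, with 3.00 for IFI6, 2.00 for OAS3, 1.17 for IFI44, 1.11 for IFIT2, 0.79 for RIGI, 0.75 for IFIT5 and 0.46 for HERC5. The named genes of the stress response list were positive, with 0.62 for SLC7A11 and 0.41 for CARS1. Immediate-early genes went either way, with 1.26 for EGR1 and 0.40 for KLF10 but −0.52 for JUNB and −0.58 for JUND, and the ERK feedback gene DUSP1 stood at −0.63. Among genes higher with TBX4 and TBX5, the value was 2.90 for NPTX1, 1.23 for EPHB2, 0.95 for SERPINI1, 0.81 for BMP6 and 0.57 for PFKFB3, all with a larger difference between TBX3 and TBX5, while ENO1 (−0.38), PGK1 (−0.38) and GPI (−0.41) had the larger one between TBX2 and TBX4. DHRS2 stood at 2.62, KDM7A at 0.88, COL12A1 at 0.55, KDM6A at −0.41 and ID3 at −0.48.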

How the results depend on the processing

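These counts were followed, given in the same order throughout, namely the genes that separate the pairs (1833 as reported), those called in all 4 cross-pair contrasts (157), those called in both within-plasmid contrasts with the same sign (271) and those whose within-plasmid differences differ (911). Scaling by library totals left 60, 6, 11 and 16, whereas totals without ENSG00000266658 gave 1618, 120, 194 and 653. An absolute log2 difference of at least 1 as well left 64, 9, 19 and 169, and an adjusted p below 0.05 left 83 of the second kind, 152 of the third and 522 of the fourth. The DESeq2 Wald test gave 101 of the second and 177 of the third, and no filter beyond 1 count gave 103 of the second. The cause of the change with the test, the filter and the library totals was not tested. Leaving out 1 library gave 1521 to 1911, 98 to 159, 189 to 270 and 636 to 1022. The lowest count of the second kind, 98, was without TBX4 replicate b, and that of the first, 1521, without TBX3 replicate b.

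A block for the replicate letter gave 1797, 148, 254 and 820, and a GC correction with the replicate block gave 1901, 154, 271 and 940. No pairing by letter was seen in the average correlation, and the labels do not say what the letters stand for. Deviations from the group means correlated at 0.01 on average for libraries of the same letter and at −0.005 for others, and 1 of 18 same-letter pairs was over 0.1. Scaling by totals without ENSG00000266658 moved the fourth count from 459 positive and 452 negative to 437 and 216.

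Of the named genes, 86 missed the threshold under at least 1 setting, 82 of them under library totals, and 0 changed direction. Across 30 settings at the same threshold 33 genes separated in each, and 792 in each but library totals. The stress response list had 12 to 15 higher members and 0 lower ones when any 1 library was left out, and 6 under library totals, where the glycolysis, ribosomal protein and interferon lists had 0. The floor of 3 counts, at most 0.593 CPM, limits the precision of low genes.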
